A study of Mus musculus with 6 samples.

Results

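The genes described here are 10 mouse antioxidant genes: the superoxide dismutases Sod1 and Sod2, catalase (Cat), the glutathione peroxidases Gpx1 and Gpx4, the peroxiredoxins Prdx1, Prdx5 and Prdx6, thioredoxin (Txn1) and the thioredoxin-interacting protein Txnip. They were chosen by name, and all 10 were found among the 47561 features listed in each library. The RNA came from peripheral blood neutrophils of mice, isolated by flow sorting, with 3 control libraries and 3 from mice that had received AVP for 30 days. The labels write the genotype of the groups as control and AVP and their treatment as negative control and AVP treatment; strain, sex, age, dose and route, and what AVP stands for, are not stated there. Nothing in the labels says that the libraries of a group came from separate mice, so a p-value here reflects only the spread among these libraries, which may be technical.

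Neutrophils make superoxide on purpose, with the phagocyte NADPH oxidase, and must keep it from damaging their own proteins and lipids. Superoxide dismutases turn superoxide into hydrogen peroxide, which catalase, the glutathione peroxidases and the peroxiredoxins then remove. Thioredoxin supplies electrons to most peroxiredoxins and reduces oxidised proteins, and Txnip, an alpha-arrestin whose transcription follows glucose supply, binds reduced thioredoxin and blocks it.

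Levels are given in FPKM (fragment numbers divided by transcript length and library depth), a unit per length that lets genes be set side by side. The depth, estimated from the value that 1 fragment adds to short pseudogenes, was about 14199000 to 16845000 fragments a library. The neutrophil genes S100a8 and S100a9 took 18.4% to 23.9% of the total FPKM. Of the 8 neutrophil markers, 4 had a lower and 4 a higher mean after AVP. Without overlap, Retnlg (2.02 times the control mean) and Il1r2 (3.47 times) were higher and Mmp9 (0.528 times) was lower. For the other neutrophil markers the groups overlapped. RNA of other cells was also present: haemoglobin genes took 13.6% to 29.2%, most in AVP replicate 1. The summed FPKM of 6 basophil markers was 325 in AVP replicate 1 and 0 to 15.3 in the other libraries, that of 8 T and NK cell markers was 159 in AVP replicate 3 and 2.41 to 16.2 elsewhere, and that of 8 monocyte markers was 209 in AVP replicate 3 and 502 to 1100 elsewhere. In sorted bulk RNA, fewer cells of a type and less RNA per cell cannot be told apart.

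Blood neutrophils carried these genes over a wide range of levels. Txn1 had the highest mean over the 6 libraries, 1306 FPKM, and ranked 45th of the 8523 genes tested, and Gpx1 followed with 1225 FPKM at rank 55. Together Txn1 and Gpx1 made up 61.5% to 70.4% of the summed FPKM of the 10 genes. Below them came Prdx5 (426 FPKM), Gpx4 (322 FPKM), Txnip (232 FPKM), Sod1 (173 FPKM), Prdx1 (80.1 FPKM), Prdx6 (42.6 FPKM), Cat (13.1 FPKM) and Sod2 (6.74 FPKM). In this order only the step from Gpx1 to Prdx5 was wider than the spread between libraries; the ranges of every other pair of neighbours overlapped. The 10 genes took 0.428% to 0.485% of all FPKM in controls and 0.432% to 0.585% after AVP, so the groups overlapped in their sum.

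**Figure D1:**
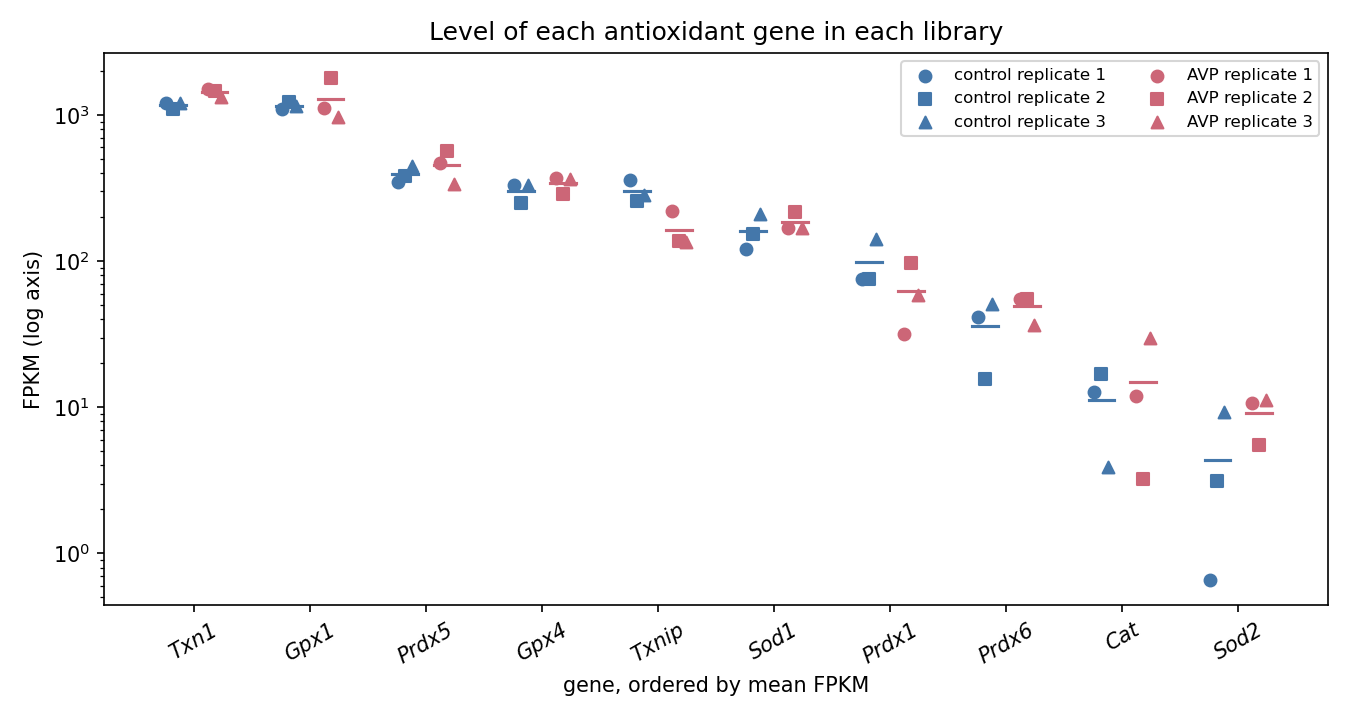
Level of the 10 genes in each library, in FPKM on a log axis, with genes ordered by their mean; points are libraries (blue control, red AVP, marker shape for the replicate) and short lines are group means. Txn1 and Txnip are the genes whose groups do not overlap, and Cat and Sod2 have the lowest levels and the widest spread.

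The question put to the data is whether the transcripts of this defence differ in blood neutrophils after AVP. The groups were separate in the thioredoxin pair: Txnip was lower in all 3 AVP libraries than in any control, at 0.546 times the control mean, and Txn1 was higher in all 3, at 1.22 times. The other 8 genes had groups that overlapped. None of the 10 passed the threshold, an adjusted p under 0.05 over all genes tested by limma, where the share of all genes was 0%; the adjusted p of the 10 lay between 0.481 and 0.949. At an unadjusted p under 0.05, 1 of the 10 was lower, Txnip, and 0 were higher, against 8.47% of all genes in either direction (4.72% higher and 3.75% lower). Groups did not overlap in 2 of the 10, against 14% of all genes (6.39% with AVP higher and 7.63% with AVP lower). Both shares of the 10 rest on 1 or 2 genes and are near those of all genes.

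Across the 10 genes, 8 of the fitted differences lay above 0 and 2 below, with a median of 0.26 on the log2 scale, where all genes tested had a median of -0.04. The fitted difference is that between the group means of log2(scaled FPKM + 1), so it understates the change of low genes. For a single gene, the exact two-sided permutation test over 3 against 3 libraries cannot give a p below 0.1.

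**Figure D2:**
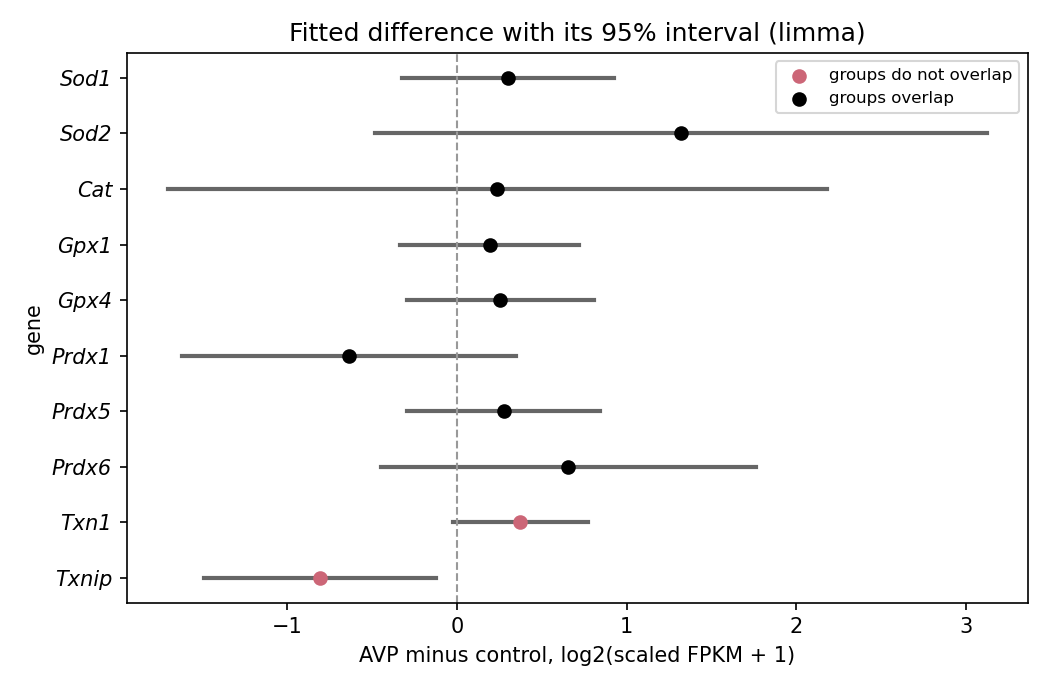
Fitted difference between AVP and control for each gene, on the log2(scaled FPKM + 1) scale, with its 95% interval by limma; red points are genes whose groups do not overlap. The interval of Txnip lies below 0, that of Txn1 reaches from -0.02 to 0.77, and those of Cat and Sod2 are the widest.

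Sod1, the copper and zinc dismutase of the cytosol (gene identifier 20655, chromosome 16 from 90220762 to 90226333, mm10 coordinates as for all genes here), was at 120, 153 and 212 FPKM in control replicates 1 to 3 and at 169, 216 and 167 FPKM in AVP replicates 1 to 3. AVP replicate 2 was just above the highest control, the other AVP libraries lay within the controls' range, and the difference of 0.30 (SE 0.27, 95% interval -0.33 to 0.92) was within the spread between libraries. It was 0.10 without control replicate 1 and 0.50 without control replicate 3. A processed pseudogene, Gm8566, which matches the Sod1 coding sequence at 97.8% identity over its whole length, was listed at 4.47 to 6.94 FPKM, at most 4.2% of Sod1. Sod2, the manganese dismutase of mitochondria (identifier 20656, chromosome 17 from 13007839 to 13018119), was far lower, at 0.656, 3.12 and 9.21 FPKM in controls and 10.8, 5.52 and 11.2 FPKM after AVP. Control replicates 1 and 2 were below every AVP library, but control replicate 3 was not. Its fitted difference was 1.32 (SE 0.78, 95% interval -0.49 to 3.12, adjusted p by limma 0.738). The lowest Sod2 value stands for about 55 fragments and the highest for about 1103. Without control replicate 3 the difference of Sod2 was 1.96, with an unadjusted p of 0.0388 by limma, and without control replicate 1 it was 0.66. With a pseudocount of 5 it was 0.73. The level of Sod1 was 15.0 to 183 times that of Sod2 within a library.

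Cat, the catalase of peroxisomes (identifier 12359, chromosome 2 from 103453904 to 103485153), was at 12.8, 17.0 and 3.91 FPKM in controls and 11.95, 3.25 and 29.6 FPKM after AVP. The highest value was 9.12 times the lowest, and both came from AVP libraries. The difference of 0.24 (SE 0.84) turned to -0.43 without AVP replicate 3, the library with the T and NK cell markers, and to -0.33 without control replicate 3, and it was 1.02 without AVP replicate 2. Leaving out any other library also moved it by over 1.5 times, to between 0.12 and 0.62. The part of those markers in the level of Cat was not tested.

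Gpx1, the abundant selenium-dependent peroxidase of cytosol and mitochondria (identifier 14775, chromosome 9 from 108339080 to 108340342), was at 1099, 1219 and 1157 FPKM in controls, the second-tightest control group of the 10 on the log2 scale after Txn1. After AVP it was at 1113, 1786 and 973 FPKM, on both sides of the controls. Its difference of 0.19 (SE 0.23, 95% interval -0.34 to 0.72) was -0.01 without AVP replicate 2, 0.39 without AVP replicate 3 and 0.11 with no scaling. Gpx4, which reduces lipid hydroperoxides in membranes and holds off ferroptosis (identifier 625249, chromosome 10 from 80047166 to 80056439), was at 332, 249 and 330 FPKM in controls and 373, 288 and 362 FPKM after AVP. Its highest value was 1.5 times its lowest, and the difference of 0.26 (SE 0.24, 95% interval -0.30 to 0.81) did not pass. It was 0.13 without control replicate 2 or without AVP replicate 1, and 0.43 without AVP replicate 2. A copy of Gpx4, Gpx4-ps2, which matches 67.1% of its coding sequence at 99.6% identity, was listed at 123, 95.5 and 129 FPKM in controls and 136, 105 and 128 FPKM after AVP. The copy was lowest and highest in the same libraries as Gpx4, at up to 39.1% of its level. The split of fragments between the pair is therefore uncertain.

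Prdx1, the main typical peroxiredoxin of the cytosol, which thioredoxin recycles (identifier 18477, chromosome 4 from 116685599 to 116700000), was at 75.6, 76.0 and 142 FPKM in controls and 31.5, 97.0 and 58.6 FPKM after AVP. With Txnip it was one of the 2 genes with a difference below 0, at -0.63 (SE 0.43, 95% interval -1.62 to 0.35), and the groups overlapped. That difference was -0.28 without AVP replicate 1, -0.34 without control replicate 3 and -0.97 without AVP replicate 2. Prdx5, the atypical peroxiredoxin of mitochondria, peroxisomes and cytosol (identifier 54683, chromosome 19 from 6906697 to 6910106), was the most abundant of the 3, at 349, 385 and 451 FPKM in controls and 472, 565 and 336 FPKM after AVP. AVP replicate 3 was the lowest of the 6 libraries and AVP replicates 1 and 2 the highest, a difference of 0.27 (SE 0.25). Without AVP replicate 3 that difference was 0.50, with an unadjusted p of 0.0515 by limma, and it was 0.18 without AVP replicate 1 and 0.16 without AVP replicate 2. Its span overlaps that of Trmt112 on the other strand, listed at 17.6 to 46.8 FPKM. Prdx6, the 1-Cys peroxiredoxin that also has phospholipase A2 activity and uses glutathione in place of thioredoxin (identifier 11758, chromosome 1 from 161240112 to 161251210), was at 41.7, 15.5 and 50.6 FPKM in controls and 55.5, 55.4 and 36.7 FPKM after AVP. Control replicate 2 was far below the other libraries, and without it the difference of 0.66 (SE 0.48) was 0.17. Within a library, Prdx5 was at 3.17 to 5.06 times the level of Prdx1 in controls and at 5.74 to 15.0 times after AVP, a contrast noticed after the values were seen and given with no test. The summed level of the 3 peroxiredoxins was 466 to 644 FPKM in controls and 432 to 718 FPKM after AVP.

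Txn1, the cytosolic thioredoxin (identifier 22166, chromosome 4 from 57943373 to 57956411), was at 1214, 1105 and 1209 FPKM in controls against 1513, 1469 and 1328 FPKM after AVP. The lowest AVP library was above the highest control, and the 6 libraries lay closer together than for any other of the 10 genes, the highest at 1.37 times the lowest. The group means were 1176 ± 61.9 FPKM (SD, n = 3) in controls and 1437 ± 96.5 FPKM (SD, n = 3) after AVP. The fitted difference was 0.37 (SE 0.17, 95% interval -0.02 to 0.77), with an unadjusted p of 0.0616 and an adjusted p of 0.615 by limma. About 17571 to 25082 fragments stand behind each value. The 10 red cell markers all had a higher mean after AVP, with sums of 102758 to 154943 FPKM in controls and 119482 to 242672 FPKM after AVP. Without AVP replicate 1, which held the most red cell and basophil RNA, the difference of Txn1 was 0.28. Without AVP replicate 3 it was 0.44, with an unadjusted p of 0.0442 by limma, the lowest over the alternatives. That p was 0.343 with no intensity trend, 0.175 without AVP replicate 1, 0.136 with a replicate block and 0.117 with no scaling. The part of red cell RNA in the level of Txn1 was not tested.

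Txnip (identifier 56338, chromosome 3 from 96557957 to 96561857) was at 356, 260 and 284 FPKM in controls against 219, 136 and 136 FPKM after AVP. Every AVP library was below every control, and AVP replicates 2 and 3 were at about the same level. The means were 300 ± 50.2 FPKM (SD, n = 3) in controls and 164 ± 48.0 FPKM (SD, n = 3) after AVP. The fitted difference was -0.81 (SE 0.30, 95% interval -1.49 to -0.12), the interval of the 10 that did not reach 0, with an unadjusted p of 0.0264 and an adjusted p of 0.481 by limma. By p, Txnip ranked 468th of the 8523 genes tested. About 6267 to 14395 fragments stand behind each value. The unadjusted p was above 0.05 without control replicate 1 (0.0875), without AVP replicate 2 (0.0875) and without AVP replicate 3 (0.0745), and it was 0.105 with no intensity trend.

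Because a scaling between libraries acts on both genes alike, the ratio of Txn1 to Txnip within a library does not depend on it. The ratio was 3.41, 4.26 and 4.26 in controls and 6.90, 10.8 and 9.77 after AVP. It was thus 3.97 ± 0.488 (SD, n = 3) in controls and 9.15 ± 2.01 (SD, n = 3) after AVP. Its groups could not overlap, since every AVP library was above every control in Txn1 and below every control in Txnip. The ratio was formed after the values of both genes were seen, so it is a description and was not tested.

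**Figure D3:**
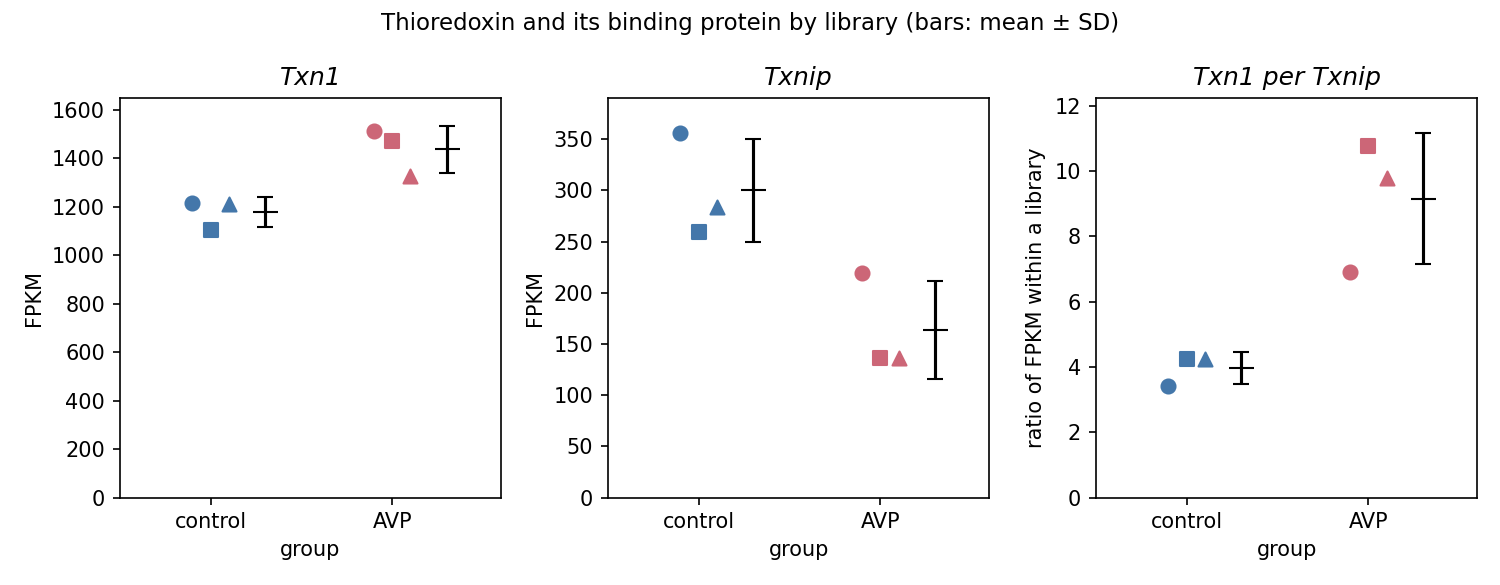
FPKM of Txn1 and of Txnip and their ratio within a library, by group; points are libraries (circle, square and triangle for replicates 1, 2 and 3), and bars are the mean ± SD of 3. The AVP libraries are above the controls for Txn1, below them for Txnip, and at 6.90 to 10.8 against 3.41 to 4.26 for the ratio. The separation of the ratio follows from that of both genes.

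Lymphocytes also express Txnip, and the 6 B cell markers all had a lower mean after AVP. Their sums were 6036, 7745 and 4893 FPKM in control replicates 1 to 3 and 1258, 4839 and 3788 FPKM in AVP replicates 1 to 3. Every AVP library was thus below every control in this sum, as it was in Txnip. The part of B cell RNA in the level of Txnip was not tested. The long non-coding gene Gm15441 spans Txnip on the opposite strand and was also lower after AVP, at 3.65, 4.75 and 9.28 FPKM in controls against 0.135 and 2.56 FPKM in AVP replicates 2 and 3, and it was listed at 0 in AVP replicate 1. The groups did not overlap. The sources used here do not say that strand was used in counting, so fragments of Txnip and of its antisense partner cannot be told apart.

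By the rule fixed for likeness of pattern, the 3 tested genes with a mean of at least 20 FPKM, predicted genes and pseudogenes left out, whose values most followed those of Txnip over the 6 libraries were Cyb5r4 (Pearson r = 0.991), Clec7a (r = 0.963) and Mmp9 (r = 0.954), out of 1995 genes searched. These are descriptions over 6 libraries that share their group labels, with no test. Cyb5r4, a cytochrome b5 reductase, was at 42.8, 36.8 and 40.4 FPKM in controls and 32.1, 23.7 and 22.8 FPKM after AVP. Clec7a, which encodes the beta-glucan receptor dectin-1, was at 583, 479 and 530 FPKM in controls and 394, 398 and 360 FPKM after AVP. Mmp9, the gelatinase of the tertiary granules and one of the neutrophil markers above, was at 374, 229 and 231 FPKM in controls and 197, 101 and 143 FPKM after AVP.

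The promoters of Txn1 and Txnip are shown because these genes were the pair whose groups did not overlap. The sequences are the 250 bases before the RefSeq start site in GRCm38.p6, 5′ to 3′ on the strand of the gene, with a match to the NF-kB core GGNNTTTCC in capitals.
Txn1 (chr4:57956412-57956661, minus strand): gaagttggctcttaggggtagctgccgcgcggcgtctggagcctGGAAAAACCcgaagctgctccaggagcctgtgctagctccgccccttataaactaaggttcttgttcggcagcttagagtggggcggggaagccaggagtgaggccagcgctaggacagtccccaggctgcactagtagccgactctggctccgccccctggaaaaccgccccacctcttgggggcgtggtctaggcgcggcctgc
Txnip (chr3:96557707-96557956, plus strand): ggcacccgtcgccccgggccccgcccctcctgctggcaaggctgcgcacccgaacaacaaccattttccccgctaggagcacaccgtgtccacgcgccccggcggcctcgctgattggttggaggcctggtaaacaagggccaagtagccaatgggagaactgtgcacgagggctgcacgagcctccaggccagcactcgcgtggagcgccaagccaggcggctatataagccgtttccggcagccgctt
The match in Txn1 is on the reverse strand, 206 bases before the start; Txnip has its match just after the start, from base 23 to base 31 of the transcribed part, outside the bases shown. Of all 32851 RefSeq windows of 300 bases, 5.82% held this core on either strand. Neither gene held an exact match to the E-box CACGTG, found in 7.15% of windows. The same was true of the antioxidant response element core TGACNNNGC, to which NRF2 binds, found in 12.4%. Variants of these letters, such as E-box-like sites that differ from CACGTG, were not searched for, so their absence is not shown.

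Among the 9 of the 10 genes that have a RefSeq window, the antioxidant response element core was found in Prdx1 and Sod1. The stretches that hold it are shown, with the core in capitals, since NRF2 is the textbook regulator of such genes.
Prdx1 (chr4:116685450-116685490, plus strand): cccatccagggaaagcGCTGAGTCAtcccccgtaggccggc
Sod1 (chr16:90220690-90220730, plus strand): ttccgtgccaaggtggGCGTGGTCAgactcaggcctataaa
Both matches are on the reverse strand, 133 bases before the start in Prdx1 and 56 bases before it in Sod1. The fitted differences of these genes had opposite signs, -0.63 and 0.30, and neither passed. A match is a description of the letters and not a binding site shown by these data.

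The rest of the redox network was covered by 8 fixed lists with 70 genes, of which 53 reached the filter of 1 FPKM in at least 3 libraries. None of the 53 passed the adjusted threshold by limma. By unadjusted p under 0.05, 3 lay higher and 4 lower (13.2%, against 8.47% of all genes), and the groups did not overlap in 7 (13.2%, against 14%). The median fitted difference of the 53 was -0.19.

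Of 14 tested genes that make, recycle or use glutathione, 1 was higher at an unadjusted p under 0.05 and 0 lower. Slc7a11, the cystine transporter that feeds glutathione synthesis, was at 10.8, 7.66 and 16.6 FPKM in controls against 23.6, 43.8 and 27.7 FPKM after AVP. All 3 AVP libraries were above the controls, a difference of 1.46 (SE 0.44, adjusted p by limma 0.351). Gsr, glutathione reductase and the most abundant of the list, had a difference of -0.01 (SE 0.20).

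Of the 6 tested peroxiredoxin relatives and their reductases, 2 were lower at an unadjusted p under 0.05 and 0 higher, against 3.75% and 4.72% of all genes. Sesn1, a sestrin under control of p53 and FOXO, was at 11.7, 15.3 and 10.5 FPKM in controls against 1.56, 1.54 and 3.51 FPKM after AVP, a difference of -2.05 (SE 0.57, adjusted p by limma 0.318) that was -1.24 with a pseudocount of 5. The other, Prdx3, the mitochondrial typical peroxiredoxin, is named after its values were seen: it was at 26.5, 13.7 and 13.4 FPKM in controls and 14.5 FPKM in AVP replicate 2, the other AVP libraries listed it at 0, and the groups overlapped. Prdx2, abundant in red cells, was at 18.8, 20.5 and 2.47 FPKM in controls against 63.6, 51.6 and 5.83 FPKM after AVP. Its difference of 1.40 was 0.54 without control replicate 3, 0.76 without AVP replicate 1 and 2.45 without AVP replicate 3, with an unadjusted p of 0.0222 by limma in the last. Haemoglobin took 13.6%, 19.0% and 17.6% of the total FPKM in controls and 29.2%, 15.1% and 17.0% after AVP. The library with the most haemoglobin had the highest Prdx2, but the other libraries did not follow the same order in both. The part of red cell RNA in the level of Prdx2 was not tested.

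Of the 7 tested thioredoxin partners, Txn2, the mitochondrial thioredoxin, was higher at an unadjusted p under 0.05, and 0 were lower. Txn2 was at 18.6, 4.71 and 21.5 FPKM in controls against 27.8, 46.0 and 32.7 FPKM after AVP, a difference of 1.47 (SE 0.57, adjusted p by limma 0.506). Without control replicate 2 the difference of Txn2 was 0.86, with an unadjusted p of 0.0728 by limma. That p was also above 0.05 without AVP replicate 1 (0.0523), AVP replicate 2 (0.0937) or AVP replicate 3 (0.0576). Both thioredoxin genes, Txn1 and Txn2, were therefore above the controls in all 3 AVP libraries. Of the 7 tested partners, however, 5 had a fitted difference below 0 and 2 above, with a median of -0.72. Msrb1, a selenium-containing methionine sulfoxide reductase and the most abundant of the list, had a difference of 0.08 (SE 0.21), which turned to -0.001 with no scaling. Of the 5 tested alpha-arrestins and Txnip regulators, 0 passed an unadjusted p of 0.05. Arrdc3, an alpha-arrestin of the same family as Txnip, was at 27.8, 50.4 and 34.96 FPKM in controls and 28.3, 60.2 and 49.6 FPKM after AVP, with a difference of 0.34 (SE 0.38). It was 0.14 without control replicate 1, 0.17 without AVP replicate 2, 0.58 without control replicate 2 and 0.59 without AVP replicate 1.

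Of the 9 tested genes of the NRF2 pathway, 1 lay higher and 1 lower by unadjusted p under 0.05, Maff and Mafg, small MAF partners of NRF2 named after their values were seen, both under 3 FPKM on average. Nfe2l2, which encodes NRF2 itself, was at 25.98, 32.4 and 71.3 FPKM in controls and 70.8, 67.5 and 56.2 FPKM after AVP, so control replicate 3 reached the AVP level. Its difference of 0.79 was 1.20 without that library, with an unadjusted p of 0.0124 by limma, and 0.49 without control replicate 1. Bach1, a repressor of NRF2 target genes, was at 13.2, 13.3 and 12.96 FPKM in controls and 11.1, 9.16 and 10.4 FPKM after AVP, without overlap. Its difference was -0.26 (SE 0.43), and -0.14 without AVP replicate 2. The SDs of Bach1 alone were 0.17 FPKM in controls and 0.99 FPKM after AVP. The SE by limma also draws on the spread of other genes at similar levels. Of the 6 tested genes that supply NADPH, 0 passed an unadjusted p of 0.05: Taldo1, transaldolase, the most abundant, had a difference of 0.16 (SE 0.25). Pgd, 6-phosphogluconate dehydrogenase, was at 95.7, 86.8 and 115 FPKM in controls and 78.1, 47.0 and 52.7 FPKM after AVP, again without overlap. Its unadjusted p by limma was 0.0717, 0.0175 without AVP replicate 1 and 0.0370 with no scaling. It rose to 0.209 without AVP replicate 2, 0.183 without control replicate 3, 0.158 with no intensity trend and 0.147 without AVP replicate 3. Of the 6 genes of the NADPH oxidase, the source of superoxide, 0 lay higher and 1 lower by unadjusted p under 0.05, Ncf1, named after its values were seen. Cyba, which encodes the p22phox subunit and was the most abundant of these, had a difference of 0.50 (SE 0.30). That difference was 0.19 without control replicate 2 and 0.77 without control replicate 3, with an unadjusted p of 0.0304 by limma in the latter. Sod3 and Ccs, of the dismutase list, did not reach the filter.

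**Figure D4:**
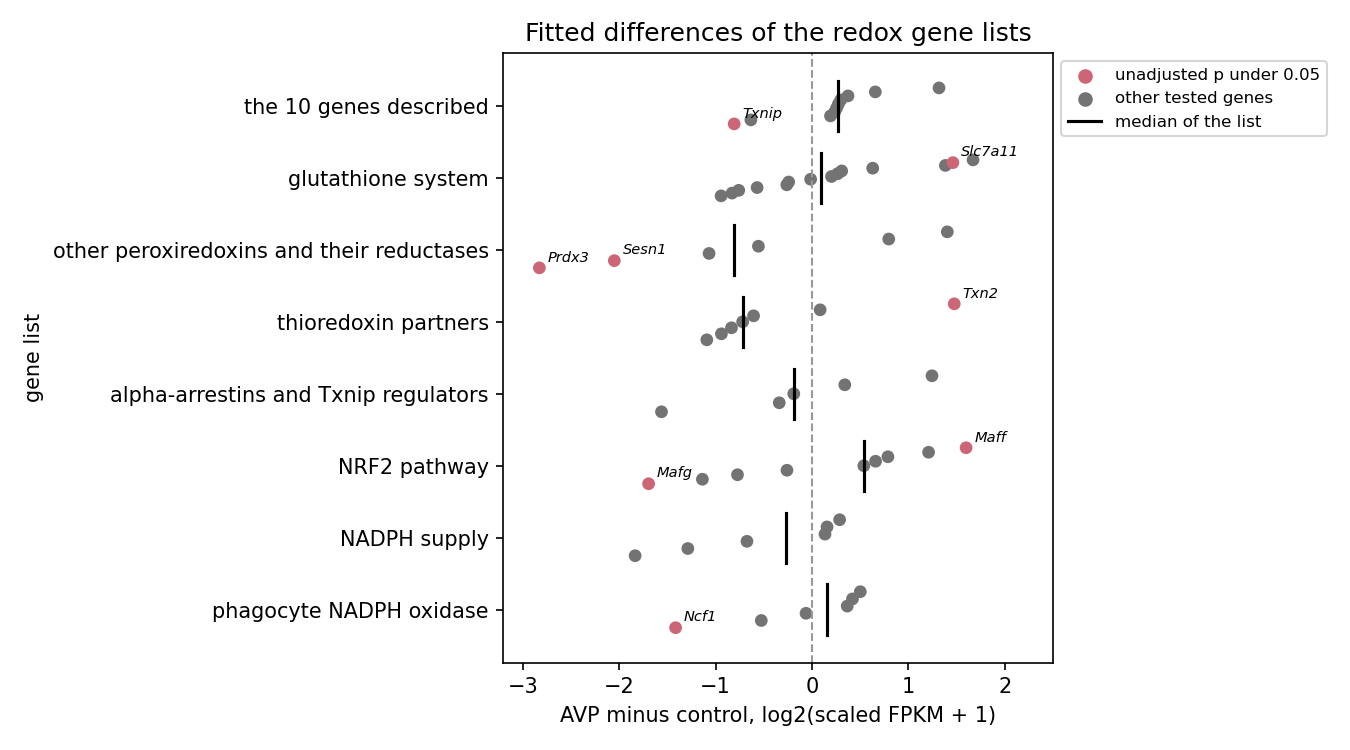
Fitted difference between AVP and control, on the log2(scaled FPKM + 1) scale, of each tested gene in the redox lists; points are genes, spread vertically only to separate them, red where the unadjusted p by limma is under 0.05, and black lines are list medians. Most genes lie between -1 and 1, and the red points are on both sides of 0.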

How the data were processed

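TruSeq libraries of the neutrophil RNA were read from both ends on an Illumina NovaSeq, per the labels' protocols. The submitters' processing notes name bcl2fastq 2.19, cutadapt 1.16.5, HISAT2 2.1, featureCounts 1.6.4, DESeq2 2.11.40.6 and mm10, without their roles; the annotation release is not stated. The values deposited were taken as FPKM made by the authors: the files name no unit, and the values are not whole and sum to 755140 to 829725 per library. Replicate errors and not counting intervals are given, since the fragment numbers are estimates. They use the longest transcript of each gene that GENCODE M21 matches to RefSeq.

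A gene was tested if 3 or more libraries held 1 FPKM or more (8523 of 47561). Scaling factors, from 0.891 to 1.04, were trimmed means of each library's log ratios to the geometric mean of all (30% cut from either end of the ratios and 5% of the levels). The test on log2(scaled FPKM + 1) was that of limma 3.58.1 (R 4.3.3; intensity trend, Benjamini-Hochberg adjustment over all tested genes, threshold 0.05); printed FPKM are unscaled. The procedure was run on simulated data with independent normal noise and changes added only to the more abundant genes. Changes in low genes and shifts in the mix of cells were not covered by that simulation. Libraries correlated at 0.742 to 0.828, and no pair was a copy of another. Identifiers and coordinates come from RefSeq for GRCm38.p6, which matched 44705 features by name. Copies are transcripts of other genes in GENCODE M21 that match at least 50% of a coding sequence at 95% identity or more (blastn). Tables and plots used Python 3.11.15, pandas 2.3.3, numpy 2.4.6 and matplotlib 3.10.9.

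The genes and lists were chosen with earlier results of these data known. Besides the 10 genes, the text names those listed genes whose groups do not overlap and whose mean reaches 5 FPKM, and the most abundant gene of each list. The alternatives were 2 other scalings, removal of haemoglobin, immunoglobulin and mitochondrially encoded genes, 2 filters, 2 pseudocounts, no trend, robust moderation, a replicate block and leaving out each library.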

Additional observations from a re-analysis of the deposited data

Results flagged for a closer look

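Srxn1, which encodes the sulfiredoxin that repairs overoxidised peroxiredoxins, did not reach the filter and was in no test. It was listed at 0 in all 3 controls and, after AVP, at 3.66 FPKM in replicate 1, 0 in replicate 2 and 0.76 FPKM in replicate 3.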

How the results depend on the processing

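Over 16 alternatives, 0 of the 10 genes passed the adjusted threshold; their lowest adjusted p by limma was 0.387. Of 159 pairs of gene and alternative, 156 kept the sign and 3 did not: with a library left out, Cat ranged from -0.43 to 1.02 and Gpx1 from -0.014 to 0.39. Genes past the threshold over all genes, 0 in the analysis as reported, were 11 with a filter of 10 FPKM, 3 with a pseudocount of 5, 1 with no intensity trend, and 0 to 4 with a library left out, 4 without control replicate 3. The number of the 10 genes at an unadjusted p under 0.05, reported as 1, was 2 without haemoglobin, immunoglobulin and mitochondrial genes and 2 with robust moderation (Txn1 joined Txnip), 0 with no intensity trend, and 0 to 2 with a library left out (0 without control replicate 1 or AVP replicate 2, and 2 without control replicate 3, where Sod2 joined); without AVP replicate 3 it was 1, then Txn1 (p 0.0442) and not Txnip (p 0.0745). With the 10 FPKM filter, which tests fewer genes (3675), 240 genes lay higher and 143 lower by unadjusted p under 0.05, and 3 pathway genes passed it; with a library left out that last number was 4 to 7, 4 without control replicate 2. Among pathway genes, Msrb1 was at -0.00095 with no scaling and ranged from -0.045 to 0.195 with a library left out, Gsr from -0.106 to 0.049 and Taldo1 from -0.063 to 0.31. Over all genes tested, same-numbered libraries did not deviate together (r = 0.0205, -0.0129 and -0.0423). These correlations cannot show whether a number marks a shared animal or day, which the labels do not state. With a replicate block Txnip was at -0.81 (adjusted p 0.553) and Txn1 at 0.37 (adjusted p 0.741) by limma, and 1 of the 10 genes was at an unadjusted p under 0.05. Among pathway genes, Prdx2 had an SE of 0.47 and an unadjusted p of 0.0223 by limma with the block. Without the block these were 1.03 and 0.209. The number of libraries, 3 in each group, and the spread of genes under about 20 FPKM limit what these data can show for Sod2 and Cat.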
